A study of Mus musculus with 9 samples.

Results

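This account follows 38 genes of the hypoxia response and of glycolysis through glioblastoma tissue from 3 mouse models. The list was drawn up by gene name, with earlier results of these data known. The 38 genes include the hypoxia-inducible factors and their prolyl hydroxylases, the pH-regulating carbonic anhydrases and other well-known targets of the factors. The glucose and lactate transporters, the glycolytic enzymes and their regulators complete the list. The list holds 38 of 46517 gene identifiers in the deposited count tables. All 38 had enough reads to be tested, among 17947 genes tested in all. Bulk RNA was sequenced from 3 tumour samples of each of the models Synapsin-cre, NG2-creERTM and Nestin-creERT2, 9 libraries in total.

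In well-oxygenated cells the prolyl hydroxylases mark HIF alpha subunits for destruction by the von Hippel-Lindau ubiquitin ligase. When oxygen falls the subunits accumulate, pair with Arnt and bind a short core motif near their target genes. Those targets raise glucose uptake, glycolysis, lactate and proton export and the growth of blood vessels, and glioblastoma is known for hypoxic zones around necrosis in which such genes are high.

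Each model is named after a Cre recombinase line. The Synapsin promoter is active in neurons, the NG2 (Cspg4) promoter in oligodendrocyte precursor cells and pericytes, and Nestin regulatory sequences in neural stem and progenitor cells. The creERTM and creERT2 forms of the enzyme act once tamoxifen is given. All 3 groups share a mixed strain background and the label of primary glioma tissue. The alleles that drive the tumours, the age and sex of the animals and the tumour site are not given in the sources used here. Nothing in the labels states that the samples of a model are from different animals, and p-values here reflect the spread between samples, part of which could be technical. In bulk tissue, fewer cells of a type and less RNA per cell cannot be told apart.

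The libraries held 23557398 to 41099967 reads counted in genes, with a median of 34742585. The 7 glioma and progenitor markers examined, among them Olig2, Sox2 and Pdgfra, were above 0 in every library. Synapsin-cre replicate 1 stood apart. Its 10 neuron markers summed to 6683 CPM (counts scaled to a common library total), against 86.2 to 1249 CPM in the other 8 libraries, and its 8 proliferation markers summed to 80.8 CPM, against 980 to 2133 CPM. Its glioma and progenitor markers summed to 454 CPM, against 1559 to 7478 CPM in the others. It was also highest in astrocyte markers (7162 CPM, against 252 to 5507 CPM) and in myeloid markers (617 CPM, against 72.1 to 358 CPM). Members whose fold changes moved most with this library are given with and without it. Nestin-creERT2 replicate 1 also stood apart in choroid plexus markers, which summed to 6025 CPM, against 2.14 to 16.4 CPM in the other 8 libraries.

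The promoter sequences of 4 members are printed here because they show the HIF core motif in the windows of 3 members with wide ranges between these tumours, Car9, Slc16a3 and Ldha, and a window without its letters in Eno2. They were chosen after their values were seen and are not the 4 widest, and the window of Car12, whose range was wider than that of Ldha, holds no match either. RefSeq promoter windows (GRCm38.p6) were found for 34 of the 38 members, in 50 windows of 250 bases before a RefSeq transcript start. The motifs searched were ACGTG and GCGTG on both strands, whose reverse complements are CACGT and CACGC and which overlap each other in palindromes such as CACGTG. Either motif was present in 38 of the 50 member windows (76.0%), against 38.6% of all 32851 windows, and ACGTG in 23 (46.0%) against 16.6%. Members were listed partly as known HIF targets, so this excess may follow from the choice of the list. Some windows of the same gene overlap and share matches, as in Aldoa, Eno1 and Pfkm. Capitals mark the motif letters, each sequence runs 5′ to 3′ on the strand of the gene and ends at the base before that RefSeq start, and the windows are chr4:43506776-43507025 on the plus strand for Car9, chr11:120948817-120949066 on the plus strand for Slc16a3, chr7:46845554-46845803 on the plus strand for the first listed start of Ldha, and chr6:124769674-124769923 on the minus strand for Eno2.
Car9: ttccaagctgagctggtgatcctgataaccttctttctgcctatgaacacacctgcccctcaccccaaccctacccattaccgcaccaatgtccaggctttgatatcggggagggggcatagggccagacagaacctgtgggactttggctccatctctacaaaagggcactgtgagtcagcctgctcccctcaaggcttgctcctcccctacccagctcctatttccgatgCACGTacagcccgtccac
Slc16a3: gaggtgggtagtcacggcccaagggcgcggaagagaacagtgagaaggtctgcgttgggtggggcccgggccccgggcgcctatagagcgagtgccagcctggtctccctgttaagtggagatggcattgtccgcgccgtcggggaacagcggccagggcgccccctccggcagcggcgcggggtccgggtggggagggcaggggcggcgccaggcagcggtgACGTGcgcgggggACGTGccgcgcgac
Ldha: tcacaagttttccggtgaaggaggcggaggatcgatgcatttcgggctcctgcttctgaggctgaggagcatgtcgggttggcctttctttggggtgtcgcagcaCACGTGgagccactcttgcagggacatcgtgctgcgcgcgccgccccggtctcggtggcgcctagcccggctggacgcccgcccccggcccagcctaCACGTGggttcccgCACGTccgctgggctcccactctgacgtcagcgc
Eno2: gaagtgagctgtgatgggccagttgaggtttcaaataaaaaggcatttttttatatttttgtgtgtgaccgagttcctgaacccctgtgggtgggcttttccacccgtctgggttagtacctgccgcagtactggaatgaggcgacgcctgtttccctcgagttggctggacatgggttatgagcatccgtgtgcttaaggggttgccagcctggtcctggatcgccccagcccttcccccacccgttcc
For Car9, Slc16a3 and Ldha the RefSeq start lies inside the GENCODE bounds of the gene, so these windows lie partly or wholly within those bounds. The Car9 window holds 1 match, which begins 18 bases before the RefSeq start, and the Slc16a3 window holds 2, which begin 27 and 14 bases before it. The Ldha window holds 5 matches, 4 of them paired within 2 palindromes. The Eno2 window holds none of these letters. A match is a description of the letters and not evidence of binding.

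Values below are CPM scaled with TMM size factors, in the order of replicates 1, 2 and 3 of each model. Scaling by length used all annotated exons of a gene, merged. Per kilobase of exon, the most abundant members over the 9 libraries were Aldoa (357 CPM per kb), Pkm (253), Ldha (251) and Gapdh (221), enzymes of the middle and end of glycolysis. The lowest were Pfkfb4 (4.15 CPM per kb), a bifunctional regulator of phosphofructokinase, and the carbonic anhydrase Car12 (1.49). The range from the lowest to the highest library was 2.45-fold for Pgam1, the narrowest, and 189-fold for Car9, the widest.

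Levels varied widely between tumours of the same model. The mean log2 CPM of the 38 genes was 6.61, 7.24 and 7.46 in the Synapsin-cre libraries, 7.12, 7.32 and 6.24 in the NG2-creERTM libraries and 6.88, 6.0 and 5.95 in the Nestin-creERT2 libraries. By model this averaged 7.10 ± 0.44, 6.89 ± 0.57 and 6.27 ± 0.52 for Synapsin-cre, NG2-creERTM and Nestin-creERT2 (SD, n = 3 each), and the ranges overlapped. Synapsin-cre replicate 3 held the highest value of 15 members, more than any other library. Nestin-creERT2 replicates 2 and 3 held the lowest value of 8 and 11 members and the highest of 0. Within a model, the median member differed 3.07-fold between its highest and lowest library in Synapsin-cre, 2.62-fold in NG2-creERTM and 2.11-fold in Nestin-creERT2.

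**Figure D1:**
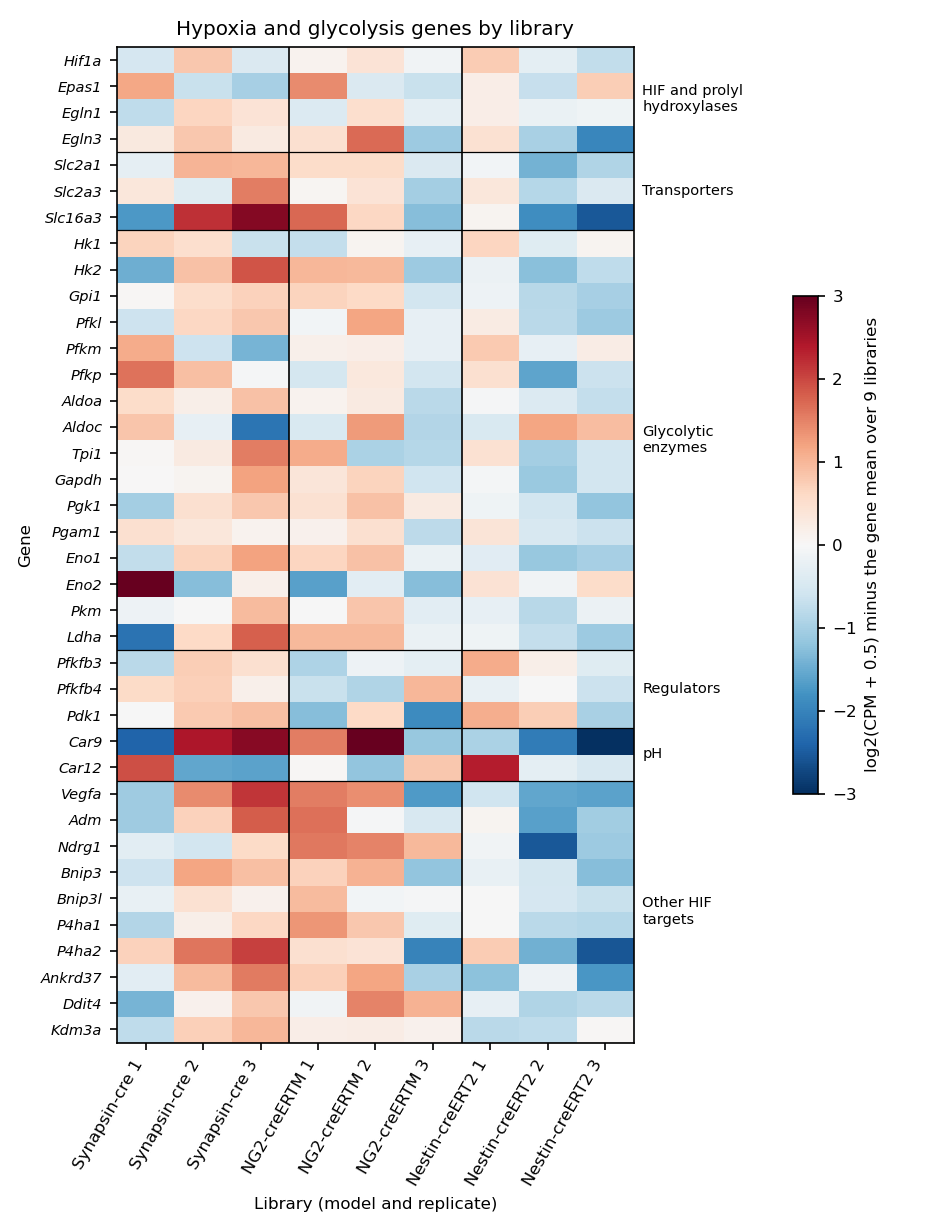
Level of each of the 38 genes (rows, grouped by role) in each of the 9 libraries (columns), as log2(CPM + 0.5) minus the gene's mean over the 9 libraries, with colours capped at 3 in either direction. Synapsin-cre replicates 2 and 3 and NG2-creERTM replicates 1 and 2 are mostly red in the lower block of HIF targets, whereas Nestin-creERT2 replicates 2 and 3 are mostly blue.

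In edgeR's quasi-likelihood test of all 9 libraries, adjusted over 17947 genes by the Benjamini-Hochberg method, 0 of the 38 members passed an adjusted p of 0.05 in any of the 3 comparisons. The background was the same, with 0% of all genes called in each. The lowest adjusted p among members was 0.297 for NG2-creERTM against Nestin-creERT2 (Ndrg1), 0.389 for Synapsin-cre against Nestin-creERT2 (Slc2a1) and 0.357 for Synapsin-cre against NG2-creERTM (Eno2). At an unadjusted p under 0.05, 7 members were higher and 0 lower in NG2-creERTM than in Nestin-creERT2, where 5.53% of all genes were higher and 5.73% lower. Between Synapsin-cre and Nestin-creERT2 the members numbered 8 higher and 0 lower, against 6.74% and 4.05% of all genes. Between Synapsin-cre and NG2-creERTM they numbered 2, Eno2 and Ndrg1, against 12.8% of all genes in either direction. DESeq2 called 2, 1 and 0 members in these 3 comparisons, where it called 3.74%, 2.86% and 2.62% of all genes, and limma voom called 0 in each. Without Synapsin-cre replicate 1, 0 members passed in edgeR, where 0.671%, 1.48% and 0.00541% of all genes did, and the lowest adjusted p among members was 0.0816, 0.0645 and 0.382. At an unadjusted p under 0.05 that fit gave 12 members higher and 1 lower in NG2-creERTM than in Nestin-creERT2, against 8.11% and 10.7% of all genes, and 16 higher and 2 lower in Synapsin-cre than in Nestin-creERT2, against 9.33% and 12.2%. It gave 1 higher and 1 lower in Synapsin-cre than in NG2-creERTM, against 5.30% and 6.72%. Fits of 2 models only called 0 members, where 1.39%, 0.0291% and 0% of all genes were called. The 3 comparisons share libraries, so their results are not independent of each other.

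The direction of the fold changes is a description, not a test. The list of members was drawn up with earlier results of these data known. In NG2-creERTM over Nestin-creERT2 31 of 38 members had a positive log2 fold change, where 50.9% of all genes did, and the median member stood at 0.69 against 0.02 for all genes. In Synapsin-cre over Nestin-creERT2 33 of 38 were positive, where 57.8% of all genes were, with a median of 0.94 against 0.13. In Synapsin-cre over NG2-creERTM 28 of 38 were positive, where 54.6% of all genes were, with a median of 0.25 against 0.08. That last median turned to -0.08 without NG2-creERTM replicate 3 and was 0.01 without Synapsin-cre replicate 3. Without Synapsin-cre replicate 1 the medians were 0.69, 1.07 and 0.53, and 32 and 29 of 38 members were positive in Synapsin-cre over Nestin-creERT2 and over NG2-creERTM, where 50.5% and 49.5% of all genes were.

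**Figure D2:**
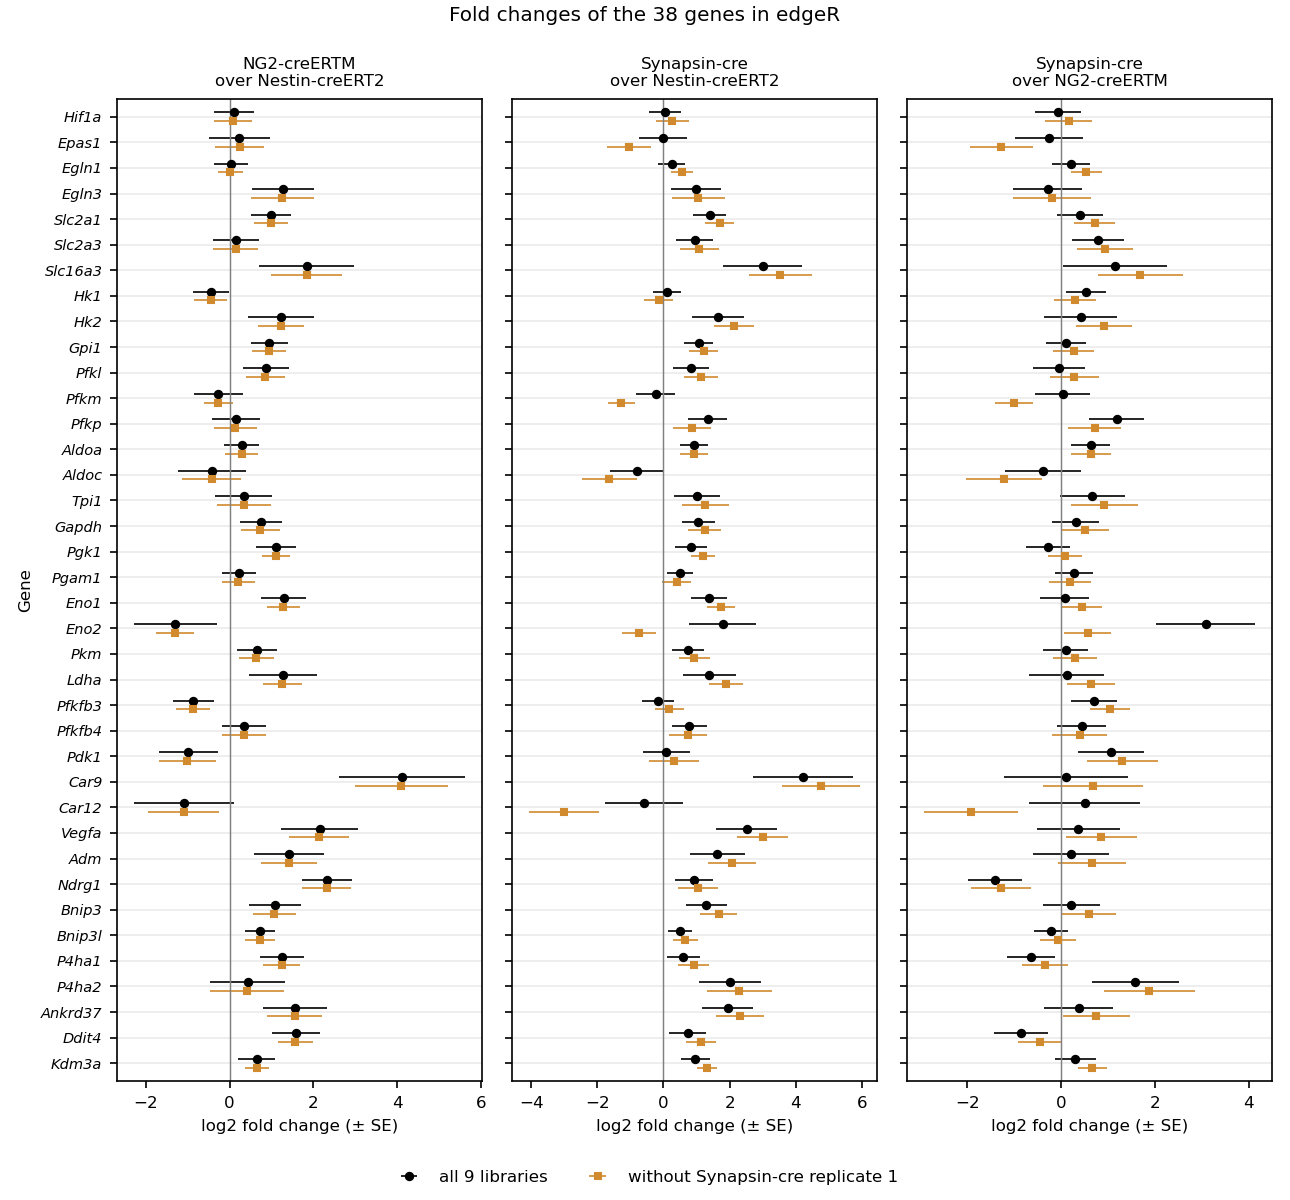
log2 fold change (x axis, ± SE) of the 38 genes (rows) in edgeR for NG2-creERTM over Nestin-creERT2, Synapsin-cre over Nestin-creERT2 and Synapsin-cre over NG2-creERTM. Black circles use all 9 libraries and orange squares leave out Synapsin-cre replicate 1. In the first 2 panels 31 and 33 of the 38 circles lie right of 0, and the circle and the square of Eno2 lie on opposite sides of 0 in Synapsin-cre over Nestin-creERT2.

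Markers of other cell types also differed between the models. The 7 fibroblast markers were above 0 in every library, and 1 of them, Pdgfrb, also marks pericytes. Their sums, 188 to 268 CPM in Synapsin-cre tumours, 447 to 929 CPM in NG2-creERTM tumours and 27.1 to 68.3 CPM in Nestin-creERT2 tumours, did not overlap. Singly, 5 of 7 were higher in every NG2-creERTM library and 4 of 7 in every Synapsin-cre library than in any Nestin-creERT2 library. Of all genes, 11.0% and 8.46% were higher in this way. Between Synapsin-cre and NG2-creERTM 0 of the 7 separated, where 8.04% of all genes were higher and 5.76% lower without overlap. The 7 Schwann and neural crest markers, again above 0 throughout, summed to 294 to 1593 CPM in Synapsin-cre tumours, 1180 to 2256 CPM in NG2-creERTM tumours and 35.1 to 392 CPM in Nestin-creERT2 tumours. Of these 7 of 7 were higher in every NG2-creERTM library than in any Nestin-creERT2 library, against 11.0% of all genes. Sox10 and Erbb3 of that list are also genes of the oligodendrocyte lineage. The 8 endothelial markers summed to 198 to 319 CPM in Synapsin-cre tumours, 173 to 355 CPM in NG2-creERTM tumours and 107 to 197 CPM in Nestin-creERT2 tumours. Neuron markers were lower in NG2-creERTM (86.2 to 502 CPM) than in Nestin-creERT2 (854 to 1249 CPM), in 9 of 10 markers without overlap. Of all genes, 14.2% were lower without overlap in that comparison. The 8 astrocyte markers summed to 252 to 7162 CPM in Synapsin-cre tumours, 957 to 2586 CPM in NG2-creERTM tumours and 4277 to 5507 CPM in Nestin-creERT2 tumours. The part of these cell types in the values of the hypoxia and glycolysis genes was not tested.

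Among the oxygen sensors and factors, transcript levels of Hif1a and Epas1, the 2 HIF alpha subunits listed, did not separate the models. Hif1a had 112, 282 and 119 CPM in Synapsin-cre tumours, 173, 213 and 149 CPM in NG2-creERTM tumours and 271, 132 and 96.2 CPM in Nestin-creERT2 tumours. Epas1, which encodes HIF-2 alpha and is abundant in endothelium, had 185, 51.2 and 40.8 CPM in Synapsin-cre tumours, 219, 60.2 and 51.2 CPM in NG2-creERTM tumours and 94.4, 50.4 and 137 CPM in Nestin-creERT2 tumours. In Synapsin-cre and in NG2-creERTM replicate 1 held more Epas1 than the other libraries of its model together, and the groups overlapped for both genes. For Synapsin-cre over Nestin-creERT2 the log2 fold change of Epas1 was -0.02 ± 0.73, and -1.03 ± 0.66 without Synapsin-cre replicate 1 (adjusted p = 0.397). The log2 fold change of Hif1a was 0.10 ± 0.48 (SE) for NG2-creERTM over Nestin-creERT2 and 0.04 ± 0.48 for Synapsin-cre over Nestin-creERT2. HIF alpha protein is controlled mainly by degradation, so its mRNA is not a readout of the pathway.

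The prolyl hydroxylases Egln1 and Egln3 are sensors, and both are also induced by HIF as a feedback. Egln1 ranged from 87.7 to 233 CPM over the 9 libraries. Egln3 had 44.7, 64.1 and 43.5 CPM in Synapsin-cre tumours, 50.2, 119 and 16.8 CPM in NG2-creERTM tumours and 49.9, 18.2 and 8.93 CPM in Nestin-creERT2 tumours. NG2-creERTM replicate 2 was highest and Nestin-creERT2 replicate 3 lowest for Egln3, a 13.3-fold range, and the models overlapped.

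The 3 transporters had positive fold changes in each of the 3 comparisons. Of all genes, 50.9% were positive for NG2-creERTM over Nestin-creERT2, 57.8% for Synapsin-cre over Nestin-creERT2 and 54.6% for Synapsin-cre over NG2-creERTM. The glucose transporter Slc2a1 (Glut1), the main one of brain endothelium and of glial tumours, had 152, 370 and 367 CPM in Synapsin-cre tumours, 266, 268 and 134 CPM in NG2-creERTM tumours and 172, 67.9 and 97.1 CPM in Nestin-creERT2 tumours. Its log2 fold change was 1.40 ± 0.49 for Synapsin-cre over Nestin-creERT2 (edgeR, adjusted p = 0.389) and 1.70 ± 0.44 without Synapsin-cre replicate 1 (adjusted p = 0.0781). The lowest Synapsin-cre library was below the highest Nestin-creERT2 library, so the models overlapped until replicate 1 was left out.

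The lactate exporter Slc16a3 (Mct4), whose promoter is printed above, spread more widely. It had 7.08, 115 and 168 CPM in Synapsin-cre tumours, 82.5, 37.8 and 9.83 CPM in NG2-creERTM tumours and 26.2, 6.37 and 3.79 CPM in Nestin-creERT2 tumours. Synapsin-cre replicate 1 lay far below the other Synapsin-cre libraries, among the Nestin-creERT2 values. The log2 fold change for Synapsin-cre over Nestin-creERT2 was 3.0 ± 1.18 (adjusted p = 0.426), and 3.53 ± 0.95 (adjusted p = 0.0859) without that library. Slc2a3 (Glut3), the high-affinity glucose transporter of neurons, had 159, 98.7 and 364 CPM in Synapsin-cre tumours, 131, 167 and 61.9 CPM in NG2-creERTM tumours and 160, 69.8 and 93.8 CPM in Nestin-creERT2 tumours, and overlapped in each comparison.

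The 16 glycolytic enzymes together took 0.796, 0.800 and 1.27% of the counts in genes in Synapsin-cre, 0.828, 1.11 and 0.491% in NG2-creERTM and 0.696, 0.507 and 0.525% in Nestin-creERT2. Each Synapsin-cre library was above each Nestin-creERT2 library. NG2-creERTM replicates 1 and 2 lay within the Synapsin-cre range, and replicate 3 lay below each Nestin-creERT2 library. Synapsin-cre replicate 1, the lowest of its model, held the highest value of 4 enzymes, Hk1, Pfkm, Pfkp and Eno2, and the lowest of 2, Hk2 and Ldha. The enzymes are described in the order of the pathway.

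Hexokinases trap glucose as glucose 6-phosphate. Hk1, the form of normal brain, had 387, 349 and 154 CPM in Synapsin-cre tumours, 150, 257 and 206 CPM in NG2-creERTM tumours and 383, 190 and 258 CPM in Nestin-creERT2 tumours. Hk2, the hypoxia-inducible form associated with glioblastoma, had 17.7, 90.7 and 185 CPM in Synapsin-cre tumours, 98.2, 97.6 and 22.9 CPM in NG2-creERTM tumours and 43.9, 20.4 and 29.1 CPM in Nestin-creERT2 tumours. Per kilobase, the log2 ratio of Hk2 to Hk1 was -3.93, -1.43 and 0.78 in Synapsin-cre, -0.09, -0.88 and -2.66 in NG2-creERTM and -2.61, -2.70 and -2.63 in Nestin-creERT2. Hk2 exceeded Hk1 in 1 library, Synapsin-cre replicate 3. The Nestin-creERT2 libraries held nearly the same ratio (-2.65 ± 0.05, SD, n = 3), and NG2-creERTM replicate 3 lay among them.

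Glucose 6-phosphate isomerase, Gpi1, had 665, 936 and 1037 CPM in Synapsin-cre tumours, 1032, 974 and 437 CPM in NG2-creERTM tumours and 580, 360 and 326 CPM in Nestin-creERT2 tumours. Each Synapsin-cre library exceeded each Nestin-creERT2 library, with a log2 fold change of 1.06 ± 0.44 (adjusted p = 0.436). Members with such a full separation numbered 5 higher and 0 lower in Synapsin-cre than in Nestin-creERT2, where 8.46% and 6.26% of all genes separated. The other 4 were Aldoa, Gapdh, Pkm and Pfkfb4. Without Synapsin-cre replicate 1 the members numbered 23 higher and 2 lower, against 19.2% and 21.0% of all genes.

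Phosphofructokinase commits sugar to glycolysis, and its 3 subunits differed in pattern. The liver-type subunit Pfkl had 144, 344 and 391 CPM in Synapsin-cre tumours, 210, 508 and 187 CPM in NG2-creERTM tumours and 264, 127 and 104 CPM in Nestin-creERT2 tumours. The muscle-type subunit Pfkm had 483, 147 and 85.7 CPM in Synapsin-cre tumours, 250, 259 and 190 CPM in NG2-creERTM tumours and 388, 188 and 264 CPM in Nestin-creERT2 tumours. The platelet-type subunit Pfkp had 546, 329 and 171 CPM in Synapsin-cre tumours, 121, 219 and 118 CPM in NG2-creERTM tumours and 243, 58.1 and 112 CPM in Nestin-creERT2 tumours. Pfkm and Pfkp were each highest in Synapsin-cre replicate 1, the library with the high neuron markers, and Pfkl was lower there than in the other Synapsin-cre libraries. For Synapsin-cre over Nestin-creERT2 the log2 fold change of Pfkm was -0.23 ± 0.58. Without that library it was -1.27 ± 0.40 (adjusted p = 0.123), with each Synapsin-cre library below each Nestin-creERT2 library.

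Per kilobase the log2 ratio of Pfkp to Pfkm was -1.83, -0.84 and -1.01 in Synapsin-cre, -3.05, -2.24 and -2.69 in NG2-creERTM and -2.68, -3.70 and -3.24 in Nestin-creERT2. Each Synapsin-cre library, replicate 1 included, was above each library of both other models. The merged exons span 13401 bases for Pfkp and 3340 for Pfkm. Before this scaling Pfkp had more CPM than Pfkm in each Synapsin-cre library, so the negative sign there depends on the lengths. The log2 ratio of Pfkl to Pfkm was -2.74, 0.23 and 1.19 in Synapsin-cre, -1.25, -0.02 and -1.02 in NG2-creERTM and -1.56, -1.57 and -2.33 in Nestin-creERT2. Here the NG2-creERTM libraries were above the Nestin-creERT2 libraries, and Synapsin-cre spanned them all.

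**Figure D3:**
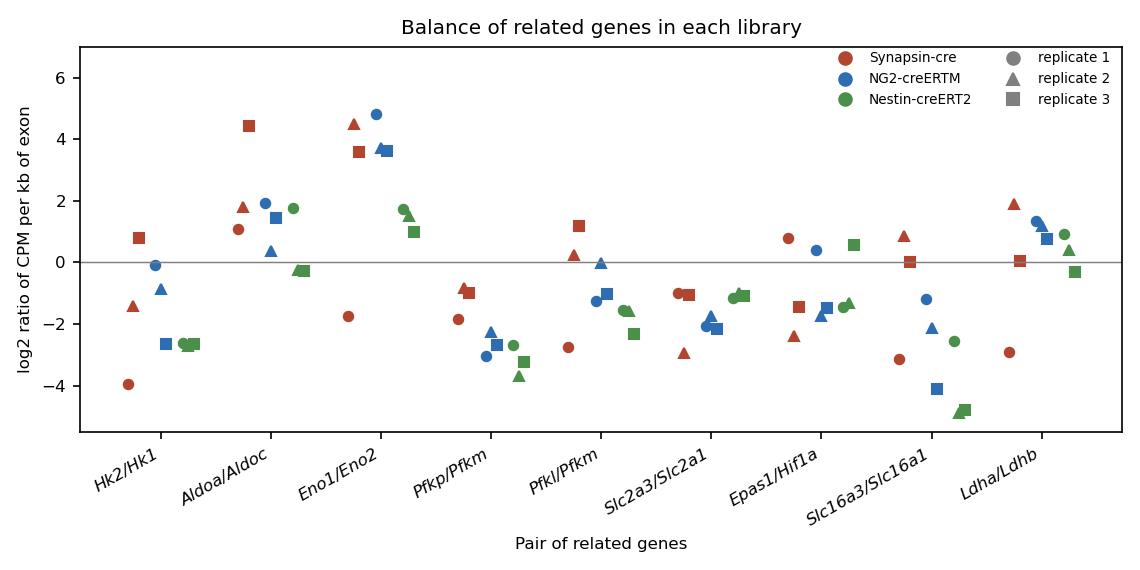
log2 ratio of CPM per kb of exon for 9 pairs of related genes (x axis) in each library. Colours give the model and symbols the replicate. For Eno1/Eno2 the NG2-creERTM libraries lie at 3.63 to 4.83 and the Nestin-creERT2 libraries at 0.99 to 1.75, and Synapsin-cre replicate 1 lies at -1.73.

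Aldolase A, the widespread form, had 1427, 1102 and 1788 CPM in Synapsin-cre tumours, 1046, 1173 and 553 CPM in NG2-creERTM tumours and 941, 728 and 590 CPM in Nestin-creERT2 tumours. Its log2 fold change for Synapsin-cre over Nestin-creERT2, without overlap, was 0.93 ± 0.42 (adjusted p = 0.466). Aldoc, the brain form and a gene of astrocytes, had 757, 354 and 92.4 CPM in Synapsin-cre tumours, 308, 1025 and 228 CPM in NG2-creERTM tumours and 310, 960 and 809 CPM in Nestin-creERT2 tumours. For Synapsin-cre over Nestin-creERT2 its log2 fold change was -0.79 ± 0.81, and -1.63 ± 0.83 without Synapsin-cre replicate 1 (adjusted p = 0.288). Per kilobase the log2 ratio of Aldoa to Aldoc was 1.08, 1.80 and 4.44 in Synapsin-cre, 1.93, 0.36 and 1.44 in NG2-creERTM and 1.77, -0.24 and -0.29 in Nestin-creERT2. The highest ratio fell in Synapsin-cre replicate 3, whose 8 astrocyte markers summed to 252 CPM, the lowest of the 9 libraries. Synapsin-cre replicate 1 had the highest astrocyte sum, 7162 CPM, and its ratio of 1.08 was not the lowest. The part of astrocytes in these ratios was not tested.

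Triose phosphate isomerase, Tpi1, ranged from 172 CPM in Nestin-creERT2 replicate 2 to 1022 CPM in Synapsin-cre replicate 3. Gapdh had 834, 874 and 1894 CPM in Synapsin-cre tumours, 1053, 1296 and 543 CPM in NG2-creERTM tumours and 790, 380 and 559 CPM in Nestin-creERT2 tumours. The log2 fold change of Gapdh for Synapsin-cre over Nestin-creERT2 was 1.06 ± 0.51 (adjusted p = 0.495). Gapdh is often used as a constant control gene, and here it varied 4.99-fold over the libraries. Of its 50-base stretches 25.1% also occur in transcripts of other genes, mostly processed pseudogenes, so its counts are uncertain.

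Phosphoglycerate kinase, Pgk1, makes the first ATP of the pathway. It had 86.2, 244 and 309 CPM in Synapsin-cre tumours, 242, 324 and 212 CPM in NG2-creERTM tumours and 161, 121 and 77.7 CPM in Nestin-creERT2 tumours. Each NG2-creERTM library exceeded each Nestin-creERT2 library, with a log2 fold change of 1.11 ± 0.48 (edgeR, adjusted p = 0.433). Its counts are uncertain too, since 53.9% of its stretches are shared with copies elsewhere. Members with such a separation numbered 5 higher (Pgk1, Eno1, Ndrg1, Ddit4 and Kdm3a) and 1 lower (Eno2) in NG2-creERTM than in Nestin-creERT2, where 11.0% and 14.2% of all genes separated. Pgam1, a phosphoglycerate mutase, ranged from 25.4 to 62.1 CPM. The counts of Pgam1 are likewise uncertain, since 36.2% of its stretches are shared with other genes.

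Both enolases separated NG2-creERTM from Nestin-creERT2, in opposite directions. Eno1, the widespread form, had 344, 920 and 1337 CPM in Synapsin-cre tumours, 902, 1062 and 502 CPM in NG2-creERTM tumours and 457, 261 and 289 CPM in Nestin-creERT2 tumours. Eno2, the neuron-specific form, had 1002, 35.5 and 96.6 CPM in Synapsin-cre tumours, 27.7, 70.4 and 35.5 CPM in NG2-creERTM tumours and 119, 80.9 and 128 CPM in Nestin-creERT2 tumours. Eno1 was higher (log2 fold change 1.29 ± 0.54, adjusted p = 0.423) and Eno2 lower (-1.29 ± 0.99, adjusted p = 0.670) in every NG2-creERTM library than in any Nestin-creERT2 library, and neither passed the test.

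Per kilobase the log2 ratio of Eno1 to Eno2 was -1.73, 4.5 and 3.60 in Synapsin-cre, 4.83, 3.72 and 3.63 in NG2-creERTM and 1.75, 1.5 and 0.99 in Nestin-creERT2. Synapsin-cre replicate 1 was the sole library in which Eno2 exceeded Eno1. The log2 fold change of Eno2 for Synapsin-cre over NG2-creERTM was 3.09 ± 1.06 with all libraries and 0.57 ± 0.50 without that replicate. For Synapsin-cre over Nestin-creERT2 it was 1.79 ± 1.01 and turned to -0.73 ± 0.51. Neuron markers summed to 6683 CPM in that library, and the part of neurons in these Eno2 values was not tested.

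Counts at a copy were also examined for Eno1. Its near-identical copy Eno1b shares 25.3% of the 50-base stretches of Eno1 and had 27.6, 0.607 and 1.05 CPM in Synapsin-cre tumours, 0.569, 0.968 and 0.496 CPM in NG2-creERTM tumours and 47.3, 22.6 and 24.1 CPM in Nestin-creERT2 tumours. With both genes added, the lowest NG2-creERTM library held 502 CPM and the highest Nestin-creERT2 library 504 CPM, so the sums overlapped. Whether the Eno1b reads stem from Eno1 was not tested.

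Pyruvate kinase, Pkm, makes pyruvate and the last ATP of the pathway. It had 1057, 1159 and 2283 CPM in Synapsin-cre tumours, 1159, 2099 and 946 CPM in NG2-creERTM tumours and 989, 656 and 1037 CPM in Nestin-creERT2 tumours. Synapsin-cre was above Nestin-creERT2 in every library by a narrow margin, with a log2 fold change of 0.75 ± 0.48 (adjusted p = 0.613). Gene counts do not tell its M1 and M2 splice forms apart, and 25.8% of its stretches are shared with other genes.

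Lactate dehydrogenase A, which turns pyruvate into lactate and whose promoter is printed above, had 134, 947 and 2164 CPM in Synapsin-cre tumours, 1220, 1222 and 537 CPM in NG2-creERTM tumours and 564, 381 and 292 CPM in Nestin-creERT2 tumours. Synapsin-cre replicates 1 and 3 held the lowest and the highest Ldha value of the 9, a 16.2-fold range within 1 model. Its log2 fold change was 1.39 ± 0.81 (adjusted p = 0.573) for Synapsin-cre over Nestin-creERT2 and 1.90 ± 0.51 (adjusted p = 0.0868) without replicate 1. Against Ldhb, the form that favours lactate use, the log2 ratio per kilobase was -2.91, 1.89 and 0.05 in Synapsin-cre, 1.36, 1.17 and 0.76 in NG2-creERTM and 0.93, 0.40 and -0.32 in Nestin-creERT2. Against Slc16a1 (Mct1), the transporter that also imports lactate, the log2 ratio of Slc16a3 was -3.14, 0.85 and 0.01 in Synapsin-cre, -1.20, -2.13 and -4.10 in NG2-creERTM and -2.56, -4.91 and -4.81 in Nestin-creERT2. Synapsin-cre replicates 2 and 3 held the values of this transporter ratio above 0.

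The 3 regulators differed from each other in pattern. Pfkfb3, which makes the activator of phosphofructokinase, had 65.8, 194 and 161 CPM in Synapsin-cre tumours, 60.2, 104 and 94.4 CPM in NG2-creERTM tumours and 249, 131 and 90.0 CPM in Nestin-creERT2 tumours. Pdk1, a kinase that inhibits pyruvate dehydrogenase and so limits the conversion of pyruvate to acetyl-CoA, had 39.4, 69.2 and 74.9 CPM in Synapsin-cre tumours, 16.2, 60.9 and 10.5 CPM in NG2-creERTM tumours and 85.7, 67.2 and 20.1 CPM in Nestin-creERT2 tumours. Both had negative fold changes for NG2-creERTM over Nestin-creERT2 (-0.86 ± 0.49 and -0.98 ± 0.71, adjusted p = 0.550 and 0.644), with overlapping libraries. Pfkfb4 had 27.5, 30.7 and 20.4 CPM in Synapsin-cre tumours, 11.4, 9.55 and 36.9 CPM in NG2-creERTM tumours and 15.8, 18.3 and 11.6 CPM in Nestin-creERT2 tumours, and separated Synapsin-cre from Nestin-creERT2 (0.78 ± 0.53, adjusted p = 0.634).

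Carbonic anhydrase 9, an enzyme on the cell surface that is among the most specific markers of hypoxia, had the largest fold changes of the members over Nestin-creERT2. Car9 (chr4:43506966-43513729, plus strand, GRCm38) had 0.797, 36.3 and 44.5 CPM in Synapsin-cre tumours, 19.3, 54.1 and 2.58 CPM in NG2-creERTM tumours and 3.03, 1.08 and 0.286 CPM in Nestin-creERT2 tumours. Synapsin-cre replicate 1 and NG2-creERTM replicate 3 lay within the Nestin-creERT2 range, and the other libraries of both models lay above it. The log2 fold change was 4.12 ± 1.51 for NG2-creERTM over Nestin-creERT2 (edgeR, adjusted p = 0.388) and 4.22 ± 1.51 for Synapsin-cre over Nestin-creERT2 (adjusted p = 0.394). Without Synapsin-cre replicate 1 these were 4.10 ± 1.11 (adjusted p = 0.0942) and 4.77 ± 1.18 (adjusted p = 0.0704).

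Car12, a related surface enzyme, ran differently. It had 27.9, 2.04 and 1.92 CPM in Synapsin-cre tumours, 7.16, 2.75 and 12.5 CPM in NG2-creERTM tumours and 37.3, 5.60 and 4.79 CPM in Nestin-creERT2 tumours. Its highest library was Nestin-creERT2 replicate 1, in which choroid plexus markers summed to 6025 CPM, and its next was Synapsin-cre replicate 1. For Synapsin-cre over Nestin-creERT2 its log2 fold change was -0.58 ± 1.18 with all libraries. It was -3.01 ± 1.06 without Synapsin-cre replicate 1 (adjusted p = 0.154), with no overlap. Whether these cells carry the Car12 reads was not tested.

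**Figure D4:**
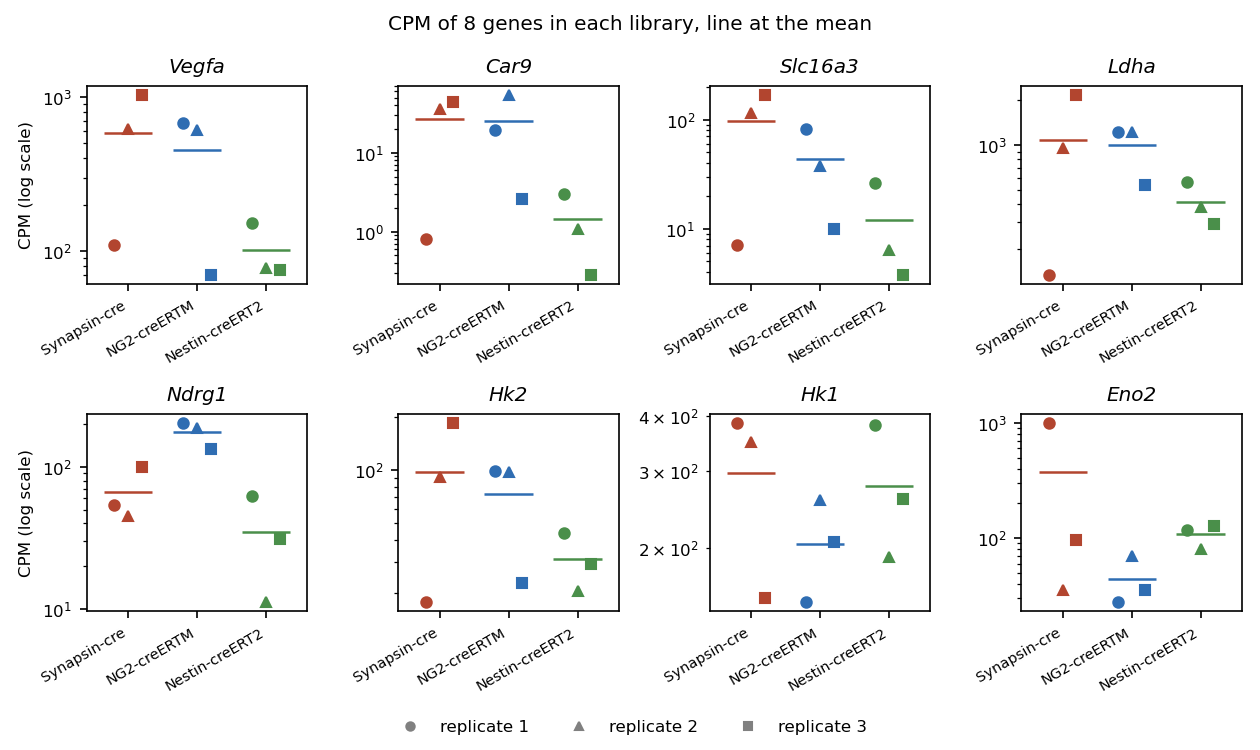
CPM (log scale) of 8 of the genes in each library, by model, with symbols for the replicate and a line at the mean of the 3 libraries. Synapsin-cre replicate 1 (circle) is the lowest Synapsin-cre library for Vegfa, Car9, Slc16a3, Ldha and Hk2 and the highest for Eno2 (1002 CPM), and NG2-creERTM lies above Nestin-creERT2 in every library for Ndrg1.

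The 10 other HIF targets had positive fold changes for NG2-creERTM over Nestin-creERT2 and for Synapsin-cre over Nestin-creERT2 in 10 of 10 cases each, with medians of 1.33 and 1.13, and 6 of 10 were positive for Synapsin-cre over NG2-creERTM. Of all genes, 50.9%, 57.8% and 54.6% were positive in these comparisons. The summed CPM of the 10 targets was 505, 1502 and 2185 in Synapsin-cre, 1782, 1830 and 872 in NG2-creERTM and 708, 422 and 472 in Nestin-creERT2. In these sums NG2-creERTM was above Nestin-creERT2 in every library, and Synapsin-cre was once replicate 1 was set aside. Ddit4 alone held 322 of the 872 CPM in NG2-creERTM replicate 3, where Vegfa (70.8 CPM) was at its lowest of the 9 libraries. Singly, 3 of 10 targets were higher in every NG2-creERTM library than in any Nestin-creERT2 library, where 11.0% of all genes were. For Synapsin-cre the count was 0 of 10, where 8.46% of all genes were. Without replicate 1 it was 9 of 10, against 19.2%.

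Vegfa, the main angiogenic factor, had 109, 619 and 1026 CPM in Synapsin-cre tumours, 674, 611 and 70.8 CPM in NG2-creERTM tumours and 152, 78.6 and 75.9 CPM in Nestin-creERT2 tumours. Synapsin-cre replicates 2 and 3 and NG2-creERTM replicates 1 and 2 held 611 CPM or more, and the other libraries of those models overlapped Nestin-creERT2. Its log2 fold change was 2.15 ± 0.91 for NG2-creERTM over Nestin-creERT2 (adjusted p = 0.430) and 2.52 ± 0.93 for Synapsin-cre over Nestin-creERT2 (adjusted p = 0.402). A fit of Synapsin-cre and Nestin-creERT2 alone without Synapsin-cre replicate 1 gave 3.0 ± 0.46 (adjusted p = 0.0310), and Car9 passed there as well (4.78 ± 0.87, adjusted p = 0.0449). These were the 2 members called in that fit, where 2.42% of all genes were called. The setting was chosen because that library stood apart, and the same kind of fit of Synapsin-cre and NG2-creERTM called 0 members, where 0.00566% of all genes were called. Adm, the vasodilator peptide adrenomedullin, ranged from 5.29 CPM in Nestin-creERT2 replicate 2 to 62.0 CPM in Synapsin-cre replicate 3.

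Ndrg1 (chr15:66929318-66969640, minus strand, GRCm38), a stress-response gene that is also abundant in myelinating glia, gave the lowest p of the members for NG2-creERTM over Nestin-creERT2. It had 53.6, 45.4 and 99.8 CPM in Synapsin-cre tumours, 204, 188 and 133 CPM in NG2-creERTM tumours and 62.8, 11.2 and 31.2 CPM in Nestin-creERT2 tumours. Each NG2-creERTM library was above each library of both other models. The log2 fold change was 2.32 ± 0.59 over Nestin-creERT2 (edgeR, unadjusted p = 0.00315, adjusted p = 0.297). For Synapsin-cre over NG2-creERTM it was -1.40 ± 0.57 (adjusted p = 0.375). The 6 oligodendrocyte markers summed to 1090 to 3618 CPM in Synapsin-cre tumours, 1858 to 5471 CPM in NG2-creERTM tumours and 464 to 1457 CPM in Nestin-creERT2 tumours. Of these markers 2 were higher and 1, Mobp, lower in every NG2-creERTM library than in any Nestin-creERT2 library. Of all genes, 11.0% and 14.2% separated in these directions. Synapsin-cre replicate 2, with the 3618 CPM, had the lowest Ndrg1 value of its model. The Schwann and neural crest sums are given above, and the part of these cells in the Ndrg1 values was not tested.

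Ddit4 (Redd1), a hypoxia-induced inhibitor of mTOR signalling, had 58.7, 171 and 274 CPM in Synapsin-cre tumours, 145, 441 and 322 CPM in NG2-creERTM tumours and 131, 83.5 and 89.6 CPM in Nestin-creERT2 tumours. NG2-creERTM was above Nestin-creERT2 in every library (1.58 ± 0.58, adjusted p = 0.388). Kdm3a, a histone demethylase, had 74.9, 208 and 256 CPM in Synapsin-cre tumours, 147, 149 and 140 CPM in NG2-creERTM tumours and 72.8, 74.3 and 130 CPM in Nestin-creERT2 tumours. The NG2-creERTM values lay closely together above the Nestin-creERT2 values (0.65 ± 0.44, adjusted p = 0.613). Kdm3a for Synapsin-cre over Nestin-creERT2 gave the lowest adjusted p of the members in the fit of 8 libraries, at 0.0645 with a log2 fold change of 1.32 ± 0.31.

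Prolyl 4-hydroxylases modify collagen. P4ha1 had 60.3, 126 and 173 CPM in Synapsin-cre tumours, 280, 195 and 86.7 CPM in NG2-creERTM tumours and 111, 63.5 and 61.5 CPM in Nestin-creERT2 tumours. P4ha2 had 32.7, 62.0 and 85.5 CPM in Synapsin-cre tumours, 28.3, 27.0 and 4.67 CPM in NG2-creERTM tumours and 34.5, 7.07 and 2.98 CPM in Nestin-creERT2 tumours. P4ha2 was the 1 member with each Synapsin-cre library above each NG2-creERTM library (1.59 ± 0.92, adjusted p = 0.488), and Ndrg1 the 1 member below, where 8.04% and 5.76% of all genes separated. Without Synapsin-cre replicate 1 these counts were 6 and 3, against 13.5% and 13.1%.

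Bnip3 and Bnip3l, which direct mitochondria to autophagy, ranged from 21.8 to 121 CPM and from 48.8 to 150 CPM. Their counts are uncertain, since 47.2% and 20.8% of their stretches are shared with copies. Ankrd37, a small ankyrin repeat protein, ranged from 1.83 CPM in Nestin-creERT2 replicate 3 to 22.6 CPM in Synapsin-cre replicate 3, and 16.5% of its stretches lie in transcripts of the neighbouring gene Lrp2bp.

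Genes of the same pathways outside the 38 were examined as 3 lists. Of 7 HIF regulators 0 passed in any comparison, with 3 positive and 4 negative fold changes for NG2-creERTM over Nestin-creERT2, where 50.9% of all genes were positive. Cited2, a HIF-induced inhibitor of the pathway, was the lowest in p in both comparisons with Nestin-creERT2 when all 9 libraries were used. It had 89.3, 32.0 and 64.1 CPM in Synapsin-cre tumours, 35.2, 27.9 and 121 CPM in NG2-creERTM tumours and 24.2, 24.0 and 24.4 CPM in Nestin-creERT2 tumours. Both other models were above Nestin-creERT2 in every library, with log2 fold changes of 1.34 ± 0.58 for NG2-creERTM (adjusted p = 0.433) and 1.35 ± 0.58 for Synapsin-cre (adjusted p = 0.453). Without Synapsin-cre replicate 1, the highest of its model, the latter was 0.98 ± 0.59 (adjusted p = 0.369). In NG2-creERTM replicate 3 stood well above the other libraries of its model. Arnt, the partner of the HIF alpha subunits, was higher (0.56 ± 0.30) and Vhl, which marks them for destruction, lower (-0.55 ± 0.35) in each Synapsin-cre library than in any Nestin-creERT2 library (adjusted p = 0.534 and 0.604).

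Of 22 further HIF targets 0 passed in any comparison. Fold changes were positive in 15 for NG2-creERTM over Nestin-creERT2, 14 for Synapsin-cre over Nestin-creERT2 and 7 for Synapsin-cre over NG2-creERTM, with medians of 0.34, 0.38 and -0.31. Of all genes, 50.9%, 57.8% and 54.6% were positive in these comparisons. Plod1, a collagen lysyl hydroxylase, had 65.6, 134 and 162 CPM in Synapsin-cre tumours, 447, 174 and 149 CPM in NG2-creERTM tumours and 86.5, 34.2 and 70.2 CPM in Nestin-creERT2 tumours, with 2.01 ± 0.56 for NG2-creERTM over Nestin-creERT2 (adjusted p = 0.304). Ero1l, an oxidase of protein folding, had 29.8, 108 and 139 CPM in Synapsin-cre tumours, 290, 91.8 and 75.1 CPM in NG2-creERTM tumours and 60.4, 20.9 and 20.5 CPM in Nestin-creERT2 tumours (2.17 ± 0.74, adjusted p = 0.359). In both, each NG2-creERTM library was above each Nestin-creERT2 library. Ak4, a mitochondrial adenylate kinase, overlapped between these models (1.67 ± 0.67, adjusted p = 0.413). Ppfia4 had 178 CPM in Synapsin-cre replicate 1 and 4.06 to 24.3 CPM in the other libraries, and its fold change for Synapsin-cre over NG2-creERTM turned from 2.6 ± 1.25 to -1.24 ± 0.44 without that replicate.

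Of 22 further genes of glycolysis, pyruvate and lactate 20 were tested and 0 passed. Their medians were -0.20, -0.05 and 0.18 in the order of comparisons above, with 9, 9 and 11 positive, against 50.9%, 57.8% and 54.6% of all genes. Eno3, the muscle enolase, had 11.6, 12.3 and 18.6 CPM in Synapsin-cre tumours, 14.3, 7.09 and 15.7 CPM in NG2-creERTM tumours and 4.23, 4.32 and 2.5 CPM in Nestin-creERT2 tumours. It was higher in every library of both other models than in Nestin-creERT2, by 1.94 ± 0.48 in Synapsin-cre (adjusted p = 0.285) and 1.75 ± 0.48 in NG2-creERTM (adjusted p = 0.304). The monocarboxylate transporter Slc16a7 (Mct2) had 6.29, 7.31 and 5.47 CPM in Synapsin-cre tumours, 14.4, 17.3 and 11.7 CPM in NG2-creERTM tumours and 11.1, 9.34 and 10.6 CPM in Nestin-creERT2 tumours. Each Synapsin-cre library lay below each library of both other models (-1.19 ± 0.37 over NG2-creERTM, adjusted p = 0.357). Pgm1, a phosphoglucomutase, was higher in each NG2-creERTM library than in any Nestin-creERT2 library (0.88 ± 0.40, adjusted p = 0.453), and Bpgm, which makes bisphosphoglycerate, was lower in each Synapsin-cre library than in any NG2-creERTM library (-0.75 ± 0.32, adjusted p = 0.380).

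The balance of Slc2a3 to Slc2a1, in log2 per kilobase, was -0.98, -2.95 and -1.06 in Synapsin-cre, -2.07, -1.73 and -2.17 in NG2-creERTM and -1.16, -1.01 and -1.10 in Nestin-creERT2. NG2-creERTM was below Nestin-creERT2 in every library. The balance of Epas1 to Hif1a was 0.80, -2.38 and -1.46, then 0.42, -1.75 and -1.47, then -1.45, -1.31 and 0.58 in the same order of models. In each model a single library had more Epas1 than Hif1a per kilobase, and the models overlapped.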

How the data were processed

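The authors deposited raw read counts per gene, 1 table per sample. STAR, HTSeq and the mouse build mm10 are named in the submitters' processing notes, and versions and the annotation release are not given in the sources used here. Each table has the layout of STAR's gene counts, with 3 columns, for reads of either strand and for each strand alone. The strand that held most reads was used, since the other held 3.25 to 3.64% of the reads in genes. Between 17.9 and 27.3% of the reads went uncounted. Multimapping reads (4.97 to 9.49%) are left out by that layout, which affects genes with near-identical copies.

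Symbols, coordinates and exon lengths were taken from GENCODE vM21 on GRCm38, for 46005 of 46517 identifiers. Exon length merges all annotated exons of a gene, so rankings and signs of ratios per kilobase depend on the annotation. After filterByExpr, the models were compared in edgeR 4.0.16 (R 4.3.3) by TMM normalisation and a quasi-likelihood fit of 3 models in 9 libraries, 2-sided, with Benjamini-Hochberg adjustment. SE was derived from the fold change and the F statistic. The pseudocount for log2 CPM means was 0.5. edgeR's common biological coefficient of variation came to 0.612 (0.503 when Synapsin-cre replicate 1 was left out). limma 3.58.1 and DESeq2 1.42.0 were alternatives, and the scripts were tested on simulated data. The 38 members and the lists were chosen with earlier results of these data known. Values per library are given for members that separated any 2 models at a mean log2 CPM of 1 or more and for related pairs, and some further members were added. Of each pathway list the 3 genes with the smallest p per comparison could be named.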

Additional observations from a re-analysis of the deposited data

How the results depend on the processing

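For NG2-creERTM over Nestin-creERT2, 0 genes passed with all 9 libraries, 12 with no filter on low counts, 623 in DESeq2 and 237 in a fit of the 2 models only, and leaving out 1 library gave 0 to 124. For Synapsin-cre over Nestin-creERT2 the same settings gave 0, 12, 497 and 5 genes, leaving out 1 library gave 0 to 273, the unstranded counts 1, and the fit of 2 models without Synapsin-cre replicate 1 gave 431. For Synapsin-cre over NG2-creERTM, DESeq2 gave 446 genes, leaving out 1 library 0 to 1, and the fit of 2 models without Synapsin-cre replicate 1 gave 1. The upper ends of these ranges came without Synapsin-cre replicate 1.

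Of the members, DESeq2 called 2 for NG2-creERTM over Nestin-creERT2, which were Car9 (log2 fold change 4.11, adjusted p = 0.0330) and Ndrg1 (2.33, adjusted p = 0.0115). It called 1 for Synapsin-cre over Nestin-creERT2, Car9 (4.20, adjusted p = 0.0315). Of all genes, DESeq2 called 3.74% and 2.86% in these comparisons. The fit of Synapsin-cre and Nestin-creERT2 without Synapsin-cre replicate 1 called 2, Car9 and Vegfa, where 2.42% of all genes were called. The cause of these differences was not tested. Leaving out 1 library moved the median log2 fold change of members between 0.52 and 0.99 for NG2-creERTM over Nestin-creERT2 and between 0.52 and 1.31 for Synapsin-cre over Nestin-creERT2. Members with every library higher or lower were also counted without Synapsin-cre replicate 1, a choice made after seeing the data. They numbered 23 and 2 in Synapsin-cre over Nestin-creERT2, where 19.2% and 21.0% of all genes separated. In Synapsin-cre over NG2-creERTM they numbered 6 and 3, where 13.5% and 13.1% of all genes separated. The mean log2 ratio of Slc2a3 to Slc2a1 in Nestin-creERT2 was -1.09, and -0.93 with the unstranded counts. The other 166 values recomputed for the summary results lay within 1.5 times the value with all 9 libraries for a count, within 0.515 for a median log2 fold change and within 1 SD between libraries for a log2 ratio. Values inside these limits still moved: the mean log2 ratio of Epas1 to Hif1a in Synapsin-cre was -1.02, and -0.74 with the unstranded counts, and the median for Synapsin-cre over NG2-creERTM changed sign, to -0.08, without NG2-creERTM replicate 3. No paired analysis was possible because the replicate numbers only name samples in the order of deposit and pair none across models. With 3 libraries per model, the common biological coefficient of variation was 0.612. The effect of read depth on these comparisons was not tested.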

Other observations

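Copies of 2 glycolytic genes varied between libraries in ways that the genes themselves did not. The processed pseudogene Gm13394, which shares 19.6% of the 50-base stretches of Gapdh, had 0.221, 0.331 and 71.8 CPM in Synapsin-cre tumours, 0.270, 145 and 5.06 CPM in NG2-creERTM tumours and 0.176, 76.5 and 58.4 CPM in Nestin-creERT2 tumours. With its reads added to Gapdh, each Synapsin-cre library, at 834, 874 and 1966 CPM, still exceeded each Nestin-creERT2 library, at 790, 456 and 617 CPM. Eno1b made up 7.41, 0.07 and 0.08% of the sum of Eno1 and Eno1b in Synapsin-cre, 0.06, 0.09 and 0.10% in NG2-creERTM and 9.38, 7.98 and 7.69% in Nestin-creERT2. Another Eno1 copy, Gm5855, was high in the same libraries as Eno1b, with 2.83, 0.110 and 0.120 CPM in Synapsin-cre tumours, 0.240, 0.157 and 0.124 CPM in NG2-creERTM tumours and 4.76, 2.27 and 2.64 CPM in Nestin-creERT2 tumours. The copy Gm4735 of Eno1 held 4.85 and 4.46 CPM in Nestin-creERT2 replicates 2 and 3 and 0.147 to 0.993 CPM in the other 7 libraries. The strain background is labelled as mixed, and whether it moves with these values was not tested.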
